A study of Mus musculus with 10 samples.

Results

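The respiratory chain of mitochondria was examined in the lactating mammary gland of 5 QSi5 and 5 CBA mice through 89 nuclear genes (164 probe sets) out of 12393 genes (22626 probe sets) named on the arrays. Genes were taken by symbol, as every probe set annotated with a single gene whose name begins with Ndufa, Ndufb, Ndufc, Ndufs, Ndufv, Sdha to Sdhd, Uqcr, Cox4 to Cox8 or Atp5, together with Cyc1 and Cycs. By known role 81 of these genes (154 probe sets) encode subunits of the chain or cytochrome c, and 8 (10 probe sets) encode assembly factors that share the name prefixes, namely Ndufaf1, Ndufaf3, Ndufaf4, Ndufaf5, Ndufaf7, Sdhaf1, Sdhaf2 and Sdhaf4. Another 8 probe sets that match several genes at once, such as the copies of Ndufb4, were left out.

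QSi5 is an inbred strain bred from Quackenbush-Swiss stock under selection for large litters born close together, and CBA (CBA/CaH) is an inbred strain without that selection. The records name no transgene or drug in either strain, and ages at collection are not given in the sources used here. Each array held RNA from the inguinal gland of 1 female in her first lactation, at day 9, and the series record adds that mice were force weaned after 9 days. Arrays were of the MOE430 2.0 type for 3 mice of each strain and of the smaller MOE430A 2.0 type for 2 mice of each strain. As whole gland was used, fewer cells of a type and less RNA per cell cannot be told apart.

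The chain carries electrons from NADH, through complex I, and from succinate, through complex II, to complex III and then, by way of cytochrome c, to complex IV, where oxygen is reduced. Complexes I, III and IV pump protons across the inner mitochondrial membrane, and complex V (ATP synthase) uses the proton gradient to make ATP. Most subunits are encoded in the nucleus and a few in mitochondrial DNA. Secretory cells of the lactating gland are rich in mitochondria and spend much ATP on the synthesis and export of milk.

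Most transcripts of the chain were above the intensity minimum of the test. Testing required a mean above 20 unlogged (4.32 on the log2 scale) in 1 strain or both, and 148 of 164 member probe sets (90.2%) did so, against 11412 of 22626 (50.4%) of all probe sets. Of the 89 genes 86 kept a tested probe set. Cox7c, a small subunit of complex IV, Cox6b2, the testis form of a complex IV subunit, and Ndufaf5 had none. Differences are given as log2 values of QSi5 less those of CBA, with the standard error (SE) of limma. A probe set was called where the p from limma, adjusted by Benjamini-Hochberg (BH) over all 11412, was under 0.05.

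The strains differed in 1 of these 148 probe sets by that test. It belonged to Ndufv1, under-represented in QSi5 mice, and 0 member probe sets were called higher. Over the whole array 1.44% of probe sets were called higher and 1.51% lower in QSi5. At an unadjusted p under 0.01 limma gave 5 member probe sets (3.38%) higher and 1 (0.676%) lower, against 3.08% higher and 3.42% lower over all. At an unadjusted p under 0.05 it gave 12 (8.11%) higher and 6 (4.05%) lower, against 6.88% higher and 8.24% lower over all. Every QSi5 mouse lay below every CBA mouse for 1 member probe set (0.676%) and above for 0, against 2.63% and 2.51% over all. The share of members called was thus below or near that of the whole array.

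Most of the chain stood within a narrow band. Each gene was taken on its brightest tested probe set. A difference within 0.25 of zero was found for 66 of 79 chain subunit genes (83.5%). With the assembly factors included it was found for 73 of 86 member genes (84.9%), against 75.1% of all 7361 genes tested. Differences were positive for 49 of the 86 member genes (57.0%) and negative for 37, against 50.9% positive over all. Their median was 0.02, against 0.00 over all. By chip type, the median of the chain subunits was 0.14 on MOE430 2.0 arrays alone and -0.12 on MOE430A 2.0 arrays alone. The median half-width of the 95% interval was 0.32. For 93 of 148 member probe sets (62.8%) the whole interval lay between -0.50 and 0.50, against 59.3% of all. The intervals of the others reached past at least one of these bounds.

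**Figure D1:**
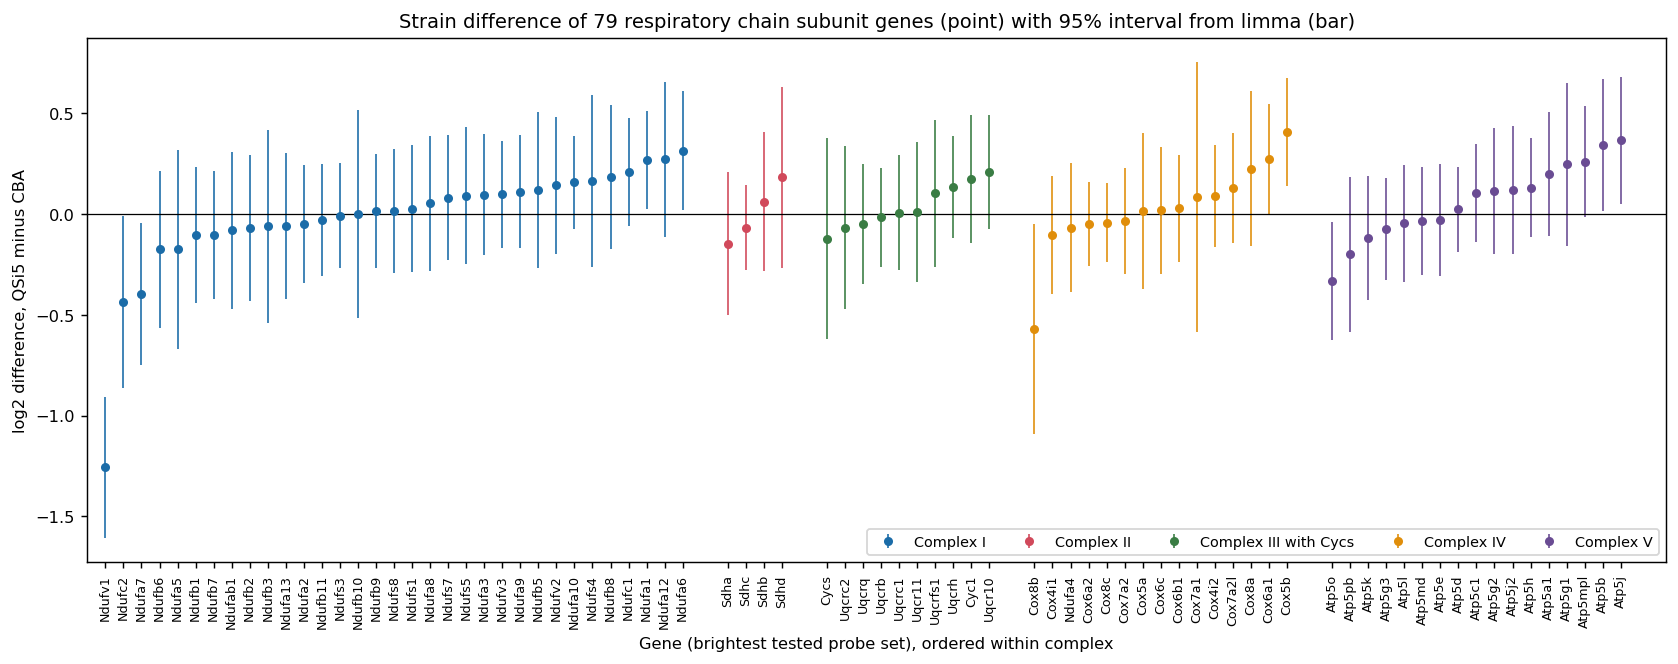
Difference between the strains (QSi5 minus CBA, log2 intensity, vertical axis) for the 79 chain subunit genes with a tested probe set, by complex, with points for the limma estimate on the brightest probe set and bars for its 95% interval. Most points lie within 0.25 of zero, and Ndufv1 at -1.26 lies farthest from it.

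Nuclear subunit genes lie on many chromosomes. The 250 bases before the RefSeq start (GRCm38.p6) were searched in the 66 of 81 subunit genes that have a promoter entry, for the letters of factors known to bind respiratory genes, on both strands. GCGCATGCG, a site for nuclear respiratory factor 1 (NRF-1), was present in 6 genes (9.09%), against 1.64% of all 27025 genes with an entry. CCGGAAG, for GABP (also called NRF-2), was present in 12 (18.2%), against 7.83%. CAAGGTCA, for estrogen-related receptors (ERR), was present in 3 (4.55%), against 1.51%, and AAGATGGCG, for YY1, in 1 (1.52%), against 0.71%. Such matches describe letters of the reference strain and not binding in these glands.

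A few of these upstream stretches are printed 5′ to 3′ on the strand of the gene, ending at the base before the start, with matches in capitals. Ndufv1 (chr19:4012756-4013005, minus strand) is given because it held the 1 called probe set, and it has no match. Cycs (chr6:50566570-50566819, minus strand) is given as the carrier with wide variation among mice, and has the NRF-1 letters from position -61. Atp5l (chr9:44920743-44920992, minus strand), a membrane subunit of ATP synthase with a difference of -0.05 (SE 0.13), is given because it holds NRF-1 letters from -241, GABP letters from -212 and ERR letters from -13.
Ndufv1: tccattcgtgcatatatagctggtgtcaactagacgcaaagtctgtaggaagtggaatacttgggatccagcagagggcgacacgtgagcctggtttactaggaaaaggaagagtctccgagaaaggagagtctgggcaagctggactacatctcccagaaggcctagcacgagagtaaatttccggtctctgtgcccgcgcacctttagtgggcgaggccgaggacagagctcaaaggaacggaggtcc
Cycs: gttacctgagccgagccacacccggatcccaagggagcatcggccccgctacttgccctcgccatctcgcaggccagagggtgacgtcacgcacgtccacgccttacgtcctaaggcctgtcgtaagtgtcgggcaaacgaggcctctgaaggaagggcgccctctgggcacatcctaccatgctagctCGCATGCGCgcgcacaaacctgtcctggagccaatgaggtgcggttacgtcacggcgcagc
Atp5l: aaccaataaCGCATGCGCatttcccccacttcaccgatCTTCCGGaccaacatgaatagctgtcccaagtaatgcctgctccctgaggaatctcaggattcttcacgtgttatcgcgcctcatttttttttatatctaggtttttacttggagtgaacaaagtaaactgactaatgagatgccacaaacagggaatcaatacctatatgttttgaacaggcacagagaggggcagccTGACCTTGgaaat
The matches in Cycs and Atp5l do not overlap each other, and their letters stand on the opposite strand and so read as the reverse complement.

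Complex I, which oxidizes NADH, was represented by 33 tested genes (62 probe sets) with a median difference of 0.02, 18 positive and 15 negative. Its nuclear core subunits between them hold the flavin and the iron-sulfur centres that pass on the electrons, and 6 of these subunits were measured. The accessory subunits, of which 27 were measured, surround the core.

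Ndufv1, on chromosome 19, encodes the core subunit that binds FMN and takes the electrons from NADH. Its probe set 1415966_a_at read 7.09, 6.83, 6.87, 6.65 and 7.34 in QSi5 mice 1 to 5, against 7.91, 8.32, 8.62, 8.0 and 8.21 in CBA mice 1 to 5. All QSi5 mice lay below all CBA mice. The difference was -1.26 (SE 0.16), or 2.39-fold lower in QSi5, with a BH adjusted p of 0.000813 from limma. It was -1.09 on MOE430 2.0 arrays and -1.51 on MOE430A 2.0 arrays. Its upstream stretch, printed earlier, held none of the 4 motifs.

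The other probe sets of Ndufv1 did not show a difference of that size. Probe set 1456015_x_at read 7.47, 7.32, 7.30, 7.10 and 7.67 in QSi5 mice, against 7.51, 7.89, 8.15, 7.45 and 7.80 in CBA mice, and the strains overlapped (difference -0.39, SE 0.15, adjusted p = 0.244). Probe set 1415967_at read 7.18, 6.82, 7.18, 7.01 and 7.26 in QSi5 mice, against 6.92, 7.00, 7.46, 6.97 and 6.95 in CBA mice (difference 0.03, SE 0.13, and adjusted p = 0.947). With the mean of the 3 probe sets in place of the brightest, Ndufv1 had a difference of -0.54 (SE 0.14) and an adjusted p of 0.0567 from limma over 7361 genes, so that no member gene was then called. Which transcripts each probe set detects, and whether a sequence difference between the strains lies under its probes, was not tested.

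**Figure D2:**
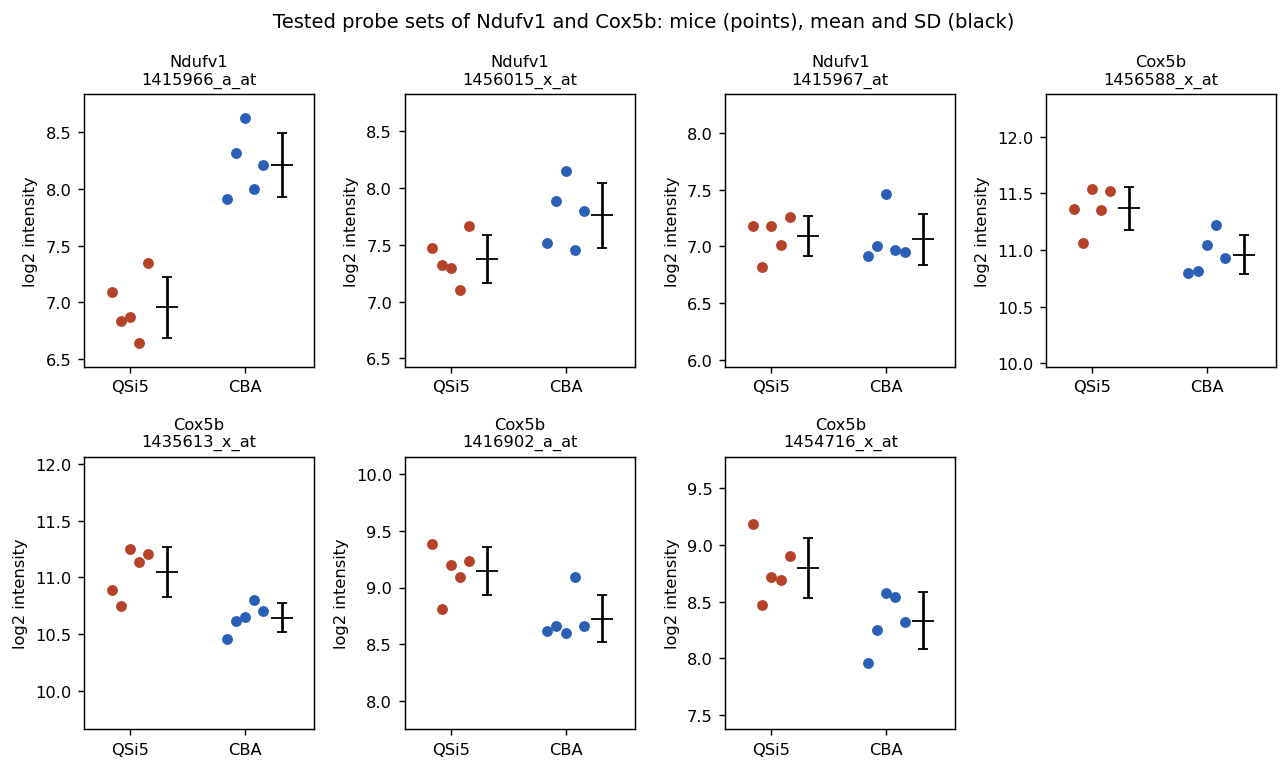
Log2 intensity (vertical axes) of the 3 tested probe sets of Ndufv1 and the 4 of Cox5b in each QSi5 mouse (left) and CBA mouse (right), with mean and SD in black (n = 5 each). The strains are apart for Ndufv1 1415966_a_at, while the 4 panels of Cox5b each show QSi5 mostly above CBA with some overlap.

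The other measured nuclear core subunits of complex I had differences between -0.01 and 0.14 on their brightest probe sets. Ndufs1, Ndufs3 and Ndufs7, which like Ndufs8 and Ndufv2 belong to the electron path or its scaffold, had differences of 0.03 (SE 0.14), -0.01 (SE 0.12) and 0.08 (SE 0.14) on their brightest probe sets. Ndufs8 had 6 tested probe sets, between -0.06 and 0.23. Ndufv2, the iron-sulfur partner of Ndufv1 in the NADH module, read 0.14 (SE 0.16) on its brightest probe set and -0.34 (SE 0.25) and -0.29 (SE 0.16) on the other two. The third subunit of that module, Ndufv3, is accessory, and had a difference of 0.10 (SE 0.12).

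Among accessory subunits Ndufa7 was not measured alike by its 5 probe sets. The brightest, 1450818_a_at, averaged 9.39 ± 0.24 in QSi5 mice and 9.78 ± 0.31 in CBA mice (SD, n = 5 each), a difference of -0.40 (SE 0.16, adjusted p = 0.267). Probe set 1455749_x_at ran the other way, with 7.59, 7.20, 7.56, 7.57 and 7.42 in QSi5 mice, against 7.07, 6.69, 6.85, 7.29 and 7.27 in CBA mice (difference 0.44, SE 0.14, adjusted p = 0.136). The remaining 3 lay between -0.14 and 0.32, so that no direction can be given for the gene. Ndufc2, a membrane arm subunit, had differences of -0.44 (SE 0.20, adjusted p = 0.318) and -0.37 (SE 0.19, adjusted p = 0.399) on its 2 probe sets. Its brighter one read 11.03, 10.76, 10.65, 10.59 and 10.67 in QSi5 mice, against 10.63, 11.23, 11.88, 10.95 and 11.19 in CBA mice, and the strains overlapped, with CBA mouse 1 low among the CBA mice. Ndufa6, which holds an acyl carrier protein on the matrix arm, and the X-linked membrane arm subunit Ndufa1 had differences of 0.31 (SE 0.14, adjusted p = 0.298) and 0.27 (SE 0.11, adjusted p = 0.272). Ndufa3, also of the membrane arm, had differences of 0.10 (SE 0.14) and 0.19 (SE 0.15).

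Complex II, succinate dehydrogenase, links the chain to the tricarboxylic acid cycle and is encoded by the nucleus alone. No probe set of its 4 genes was called, nor reached an unadjusted p under 0.05. Sdha, the flavoprotein, had differences of -0.15 (SE 0.16) and 0.07 (SE 0.12) on 2 probe sets. Sdhb, the iron-sulfur subunit, had a difference of 0.06 (SE 0.16). The membrane anchors Sdhc and Sdhd had differences of -0.07 (SE 0.10) and 0.18 (SE 0.21) on their brightest probe sets, and of 0.02 and -0.02 on their others.

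Complex III passes electrons from ubiquinol to cytochrome c. With cytochrome c itself, it was represented by 10 tested genes (17 probe sets), of which 0 were called and 0 reached an unadjusted p under 0.05. The median difference was 0.01, with 6 positive and 4 negative. Cyc1, the cytochrome c1 subunit, had a difference of 0.17 (SE 0.15), the Rieske protein Uqcrfs1 one of 0.10 (SE 0.17), and the core proteins Uqcrc1 and Uqcrc2 ones of 0.01 (SE 0.13) and -0.07 (SE 0.19). The small subunit Uqcrb differed by -0.02 (SE 0.11) and Uqcrh, the hinge protein, by 0.13 (SE 0.12). On the brightest probe sets the largest difference in the complex was that of Uqcr10, a small subunit, at 0.21 (SE 0.13). Uqcrq, another small subunit, had a difference of -0.05 (SE 0.14), and the other probe sets of these genes lay between -0.09 and 0.20.

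Cycs, the mobile electron carrier, varied more among mice of 1 strain than between the strains. Its brightest probe set, 1456071_a_at, read 10.29, 9.17, 9.89, 9.33 and 10.09 in QSi5 mice, against 9.49, 9.71, 10.13, 10.31 and 9.73 in CBA mice. The lowest and the second highest of the 10 values both came from QSi5 mice. The difference was -0.12 (SE 0.23), and the other 2 probe sets gave -0.04 (SE 0.23) and -0.37 (SE 0.28). Its printed upstream stretch holds NRF-1 letters, as does that of Atp5l.

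Complex IV, cytochrome c oxidase, was represented by 15 tested genes (27 probe sets) with a median difference of 0.02. None of its probe sets was called. Of the 5 member probe sets higher in QSi5 at an unadjusted p under 0.01, 3 belonged to Cox5b, which encodes a nuclear subunit that faces the matrix and binds zinc. On 1456588_x_at Cox5b read 11.36, 11.06, 11.54, 11.35 and 11.52 in QSi5 mice, against 10.80, 10.81, 11.04, 11.22 and 10.93 in CBA mice. Only QSi5 mouse 2 lay within the range of the CBA mice. The difference was 0.41 (SE 0.12), with an unadjusted p of 0.00618 and an adjusted p of 0.120 from limma.

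The 4 tested probe sets of Cox5b all pointed the same way, with differences between 0.40 and 0.46 and adjusted p between 0.115 and 0.162. Each overlapped between the strains. On probe set 1435613_x_at QSi5 mice read 10.89, 10.75, 11.25, 11.14 and 11.20, against 10.46, 10.61, 10.65, 10.80 and 10.70 in CBA mice. By chip type the 4 differences lay between 0.39 and 0.55 on MOE430 2.0 arrays and between 0.19 and 0.47 on MOE430A 2.0 arrays. The probe sets read the same RNA in the same mice and are not independent. With array weights 2 of its probe sets were called, and 1 was called after a second quantile normalization and 1 without CBA mouse 4, and Cox5b averaged over its 4 probe sets had a difference of 0.42 (SE 0.12) and an adjusted p of 0.0771.

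The other common subunits of complex IV differed little. Cox4i1, a main nuclear subunit that takes part in regulation by ATP, had a difference of -0.11 (SE 0.13), Cox5a 0.02 (SE 0.18), Cox6b1 0.03 (SE 0.12), Cox6c 0.02 (SE 0.14) and Cox7a2 -0.03 (SE 0.12). Ndufa4, named as a complex I subunit but found in cytochrome c oxidase, had a difference of -0.07 (SE 0.15). Cox6a1, the common form of a subunit that has a heart and muscle form, had differences of 0.27 (SE 0.13, adjusted p = 0.332) and 0.27 (SE 0.11, adjusted p = 0.287) on its 2 probe sets. Cox8a had differences of 0.23 (SE 0.18) and 0.18 (SE 0.16). The other probe sets of Cox5a, Cox6b1, Cox6c and Cox7a2 lay between -0.14 and 0.14.

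Several subunits of complex IV have a second form used in heart, skeletal muscle, brown fat, lung or testis, and these were examined beside the common forms. Cox8b, the muscle and brown fat partner of Cox8a, read 4.62, 4.52, 4.75, 4.85 and 4.53 in QSi5 mice, against 4.76, 5.68, 5.73, 5.53 and 4.40 in CBA mice. The QSi5 mice lay close together, while 3 CBA mice stood above all of them and 2 did not. The difference was -0.57 (SE 0.24, adjusted p = 0.282), and it was -0.19 on MOE430 2.0 arrays and -1.14 on MOE430A 2.0 arrays. The adipocyte markers Adipoq, Fabp4 and Retn were also higher in those 3 CBA mice than in the other 2, whereas Lep and Lpl were not. Adipoq read 7.75, 7.77 and 8.05 in the 3, against 6.63 and 6.75, and up to 7.81 in QSi5 mice. A link with Cox8b was not tested. Cox7a1, a heart and muscle form, read 5.04, 3.96, 4.42, 4.16 and 4.50 in QSi5 mice, against 3.83, 4.45, 5.47, 4.25 and 3.66 in CBA mice. Both strains spanned the test minimum of 4.32, and the difference was 0.08 (SE 0.31).

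Cox4i2, a form known from lung, read between 4.18 and 4.62 in QSi5 mice and between 4.10 and 4.54 in CBA mice, also at the minimum. The muscle form Cox6a2 and the testis form Cox8c lay above it in all mice, with differences of -0.05 (SE 0.10) and -0.04 (SE 0.09), and Cox6b2 below it in all mice, between 3.06 and 3.22 in QSi5 mice and between 3.12 and 3.39 in CBA mice. Ucp1, Elovl3 and Dio2 of brown fat and Acta1, Myh4, Tnnt3, Tnnc2 and Mylpf of skeletal muscle had means below the minimum in both strains. Of the whole lists, 1 of 4 brown fat markers (Cidea) and 3 of 8 muscle markers were above it and 0 were called. Those muscle markers were Ckm (means of 4.32 in QSi5 and 4.35 in CBA mice), Myh1 (4.69 and 4.59) and Myoz1 (5.92 and 6.05). Summed levels are the log2 of the summed unlogged intensities. For the muscle markers the sum lay between 6.99 and 7.31 in QSi5 mice and between 6.97 and 7.33 in CBA mice. For the brown fat markers it lay between 12.88 and 13.08 in QSi5 mice and between 12.84 and 13.13 in CBA mice. Nearly all of the brown fat sum came from Cidea, so that it reads 1 gene and does not measure brown fat content.

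**Figure D3:**
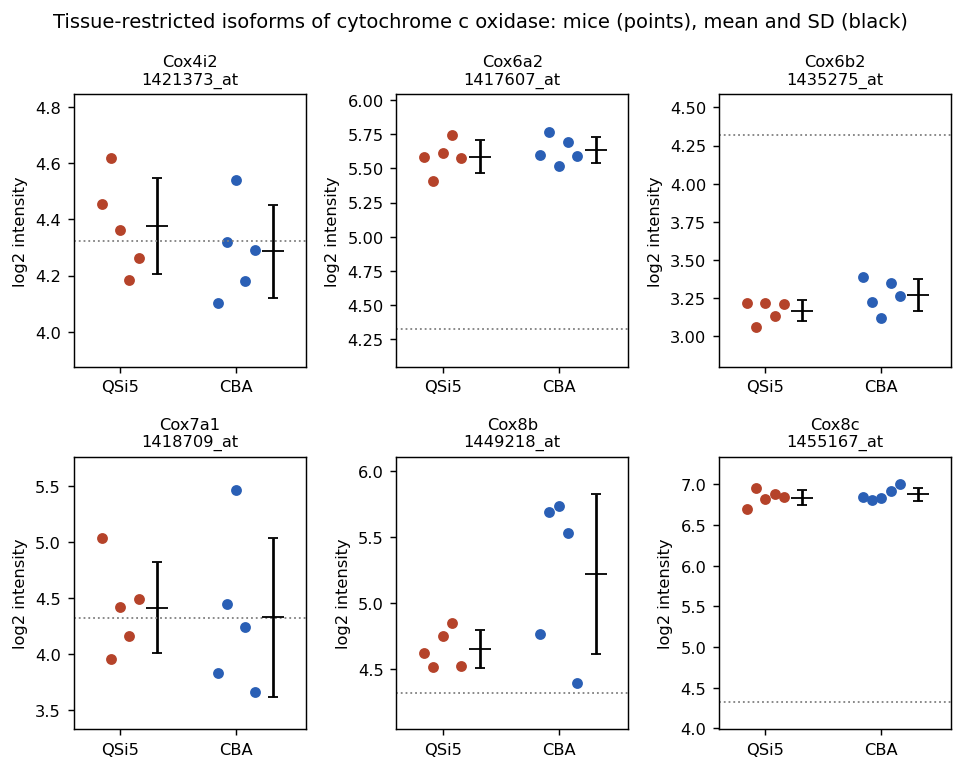
Log2 intensity (vertical axes, each panel with its own range) of the tissue-restricted forms of complex IV subunits in each QSi5 mouse (left) and CBA mouse (right), with mean and SD in black (n = 5 each) and the test minimum of 4.32 as a dotted line. Cox8b shows 3 CBA mice above all QSi5 mice, and Cox6b2 lies below the minimum in all 10 mice.

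Complex V, ATP synthase, was represented by 17 tested genes (26 probe sets) with a median difference of 0.10, 10 positive and 7 negative, and 0 probe sets were called. Its F1 part holds the catalytic sites, and the Fo part with the stator forms the proton channel and holds F1 in place. The 5 genes of F1 had a median of 0.10 and the 12 of Fo and stator one of 0.04. The median of the complex was 0.15 on MOE430 2.0 arrays alone and -0.14 on MOE430A 2.0 arrays alone. It lay between 0.03 and 0.12 when each mouse was left out in turn.

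In F1 the alpha and beta subunits, which together form the catalytic ring, both had positive differences that did not pass the adjusted threshold. Atp5a1, the alpha subunit, read 9.32, 8.96, 9.39, 9.31 and 9.46 on probe set 1423111_at in QSi5 mice, against 8.86, 8.84, 8.97, 9.08 and 8.98 in CBA mice, where QSi5 mouse 2 alone overlapped. The difference was 0.34 (SE 0.11, unadjusted p = 0.00932, adjusted p = 0.148), and the other 2 probe sets gave 0.20 (SE 0.14) and 0.01 (SE 0.14). Without QSi5 mouse 2, Atp5a1 1423111_at was called, with a difference of 0.42 and an adjusted p of 0.0416. Atp5b, the beta subunit, read 9.31, 8.80, 9.38, 9.03 and 9.24 in QSi5 mice, against 8.80, 8.79, 8.64, 9.25 and 8.57 in CBA mice (difference 0.34, SE 0.15, adjusted p = 0.312). The gamma, delta and epsilon subunits Atp5c1, Atp5d and Atp5e had differences of 0.10 (SE 0.11), 0.02 (SE 0.10) and -0.03 (SE 0.13).

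In the Fo part and stator the differences went both ways. Atp5j, coupling factor 6 of the stator, read 8.96, 8.40, 8.99, 8.84 and 8.96 in QSi5 mice, against 8.26, 8.42, 8.37, 8.86 and 8.40 in CBA mice. QSi5 mouse 2 stood among the CBA mice and CBA mouse 4 among the QSi5 mice, and the difference was 0.37 (SE 0.14, adjusted p = 0.25). Atp5o, the oligomycin sensitivity protein at the top of the stator, read 10.42, 10.01, 10.42, 10.33 and 10.33 in QSi5 mice, against 10.45, 10.39, 10.75, 11.00 and 10.58 in CBA mice, a difference of -0.33 (SE 0.13, adjusted p = 0.264). Its second probe set gave -0.49 (SE 0.38). The 3 genes of the c ring, Atp5g1, Atp5g2 and Atp5g3, had differences of 0.25 (SE 0.19), 0.11 (SE 0.14) and -0.07 (SE 0.12). Atp5h, another stator subunit, had a difference of 0.13 (SE 0.11), and Atp5pb, the b subunit, one of -0.20 (SE 0.18). Atp5j2, the f subunit, had a difference of 0.12 (SE 0.15).

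Where a gene was read by several probe sets, these gave similar values for most. Of 43 member genes with several tested probe sets, 30 had differences within 0.2 of each other and 37 within 0.3, with a median range of 0.12. The sign was the same on all probe sets of 25 genes. Ndufv1, with a range of 1.29, and Ndufa7, with 0.83, were the only 2 genes whose probe sets were apart by over 0.5.

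The subunits varied together from mouse to mouse. For each of the 79 tested chain subunit genes the deviation of each mouse from the gene's mean over all 10 arrays was taken, and the median over genes was 0.10, -0.25, 0.10, 0.02 and 0.12 in QSi5 mice 1 to 5, against -0.23, -0.09, 0.15, 0.10 and -0.06 in CBA mice 1 to 5. In QSi5 mouse 2, 72 of 79 genes lay below their own mean, and in CBA mouse 1 70 of 79 did. In QSi5 mice 1 and 5 only 17 did so in each. Over all 7361 tested genes the share below the mean was between 45.0% and 55.6% in every mouse, and the median deviation between -0.03 and 0.02. The chain was brighter, with median levels between 8.93 and 9.41 by mouse, against 5.73 to 5.81 over all tested genes. Other genes of like brightness were not compared. The strain means of the chain were 0.02 ± 0.15 in QSi5 mice and -0.03 ± 0.15 in CBA mice (SD, n = 5 each), so that mice of 1 strain differed by more than the strains did.

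The same mice stood low in every complex. In QSi5 mouse 2 the median deviation was -0.28 for complex I, -0.25 for complex II, -0.32 for complex III, -0.20 for complex IV and -0.24 for complex V. In CBA mouse 1 it was -0.30, -0.24, -0.25, -0.12 and -0.23 in the same order. All 10 genes of complex III lay below their mean in CBA mouse 1, and 16 of 17 genes of complex V did so in QSi5 mouse 2. CBA mouse 3 stood highest for complexes IV and V, at 0.21 and 0.25, and CBA mouse 4 for complexes I and II, at 0.19 and 0.23. These 2 low mice were on different chip types, and both stayed low when deviations were taken within chip type, at -0.23 and -0.25. Without both low mice, Ndufv1 1415966_a_at remained the only member called.

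**Figure D4:**
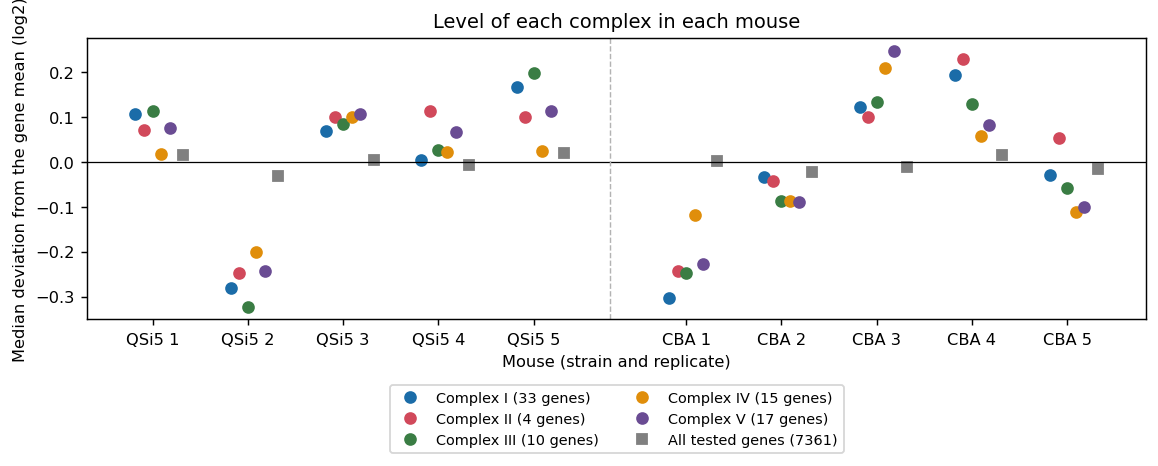
Median deviation from the gene mean (log2, vertical axis) of the tested subunit genes of each complex in each mouse, QSi5 mice on the left and CBA mice on the right, with all 7361 tested genes as grey squares. The 5 complexes lie together in each mouse, lowest in QSi5 mouse 2 and CBA mouse 1, while the grey squares stay near zero.

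Cell type markers were read beside these levels. Summed levels of 8 secretory epithelium markers lay between 16.18 and 16.26 in QSi5 mice and between 16.07 and 16.21 in CBA mice. The milk protein genes led that sum, and Lalba had a difference of 0.40 (SE 0.11, adjusted p = 0.0845 from limma). Krt8, a keratin of luminal cells, was lower in QSi5 (-0.83, SE 0.16, adjusted p = 0.0161 from limma), as the 1 called of 8. Krt8, Krt18 and Epcam, which are not milk proteins, were each highest of all mice in CBA mouse 1, at 9.47, 8.82 and 9.08. In QSi5 mouse 2 they read 8.20, 8.28 and 8.35. Of 5 myoepithelium markers, 4 were above the minimum and 0 called, and their sum lay between 10.30 and 11.61 in QSi5 mice and between 10.61 and 11.62 in CBA mice. The highest of each strain, 11.61 and 11.62, came from the 2 mice with the low chain, QSi5 mouse 2 and CBA mouse 1. CBA mouse 2 was close, at 11.53, with a median deviation of the chain of -0.09. Most of that sum came from Acta2. Acta2, Krt14, Myh11 and Krt5, each on its brightest probe set, were all highest among QSi5 mice in mouse 2. Among CBA mice Acta2, Krt14 and Myh11 were highest in mouse 1, and Krt5 in mouse 5. The adipocyte sum lay between 12.54 and 12.82 in QSi5 mice and between 12.10 and 13.02 in CBA mice, lowest in CBA mouse 1. Most of that sum came from Lpl, which read 11.74 in CBA mouse 1 and at least 12.33 in the other mice. Fabp4 had a difference of -0.73 (SE 0.23, adjusted p = 0.132 from limma), and Adipoq, Lep and Retn had differences between -0.11 and 0.09. The leukocyte sum was 9.82 in QSi5 mouse 4 and at most 8.32 in the other mice. The part of cell composition and of RNA quality in the shared variation was not tested.

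Other mitochondrial gene lists were set beside the chain. Mitochondrial ribosomal proteins, which translate the subunits encoded in mitochondrial DNA, had a median deviation of 0.16, -0.31, 0.02, 0.03 and 0.14 in QSi5 mice, against -0.08, -0.18, 0.00, 0.21 and 0.02 in CBA mice, over 73 tested genes. In QSi5 mouse 2, 66 of 73 of them lay below their mean, against 59 in CBA mouse 2 and 57 in CBA mouse 1. The 17 genes of the tricarboxylic acid cycle and pyruvate dehydrogenase stood lowest in QSi5 mouse 4, at -0.22, and highest in CBA mouse 3, at 0.28. They were at -0.19 in QSi5 mouse 2 and -0.12 in CBA mouse 1. In the same mice the 29 tested assembly factors were at -0.22 and -0.07. The 7 carriers of ADP, ATP and phosphate were at -0.25 in QSi5 mouse 2 and 0.01 in CBA mouse 1. The 15 tested regulators of mitochondrial biogenesis, which include nuclear respiratory factors and coactivators, stayed between -0.07 and 0.04 in QSi5 mice and between -0.08 and 0.14 in CBA mice.

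**Figure D5:**
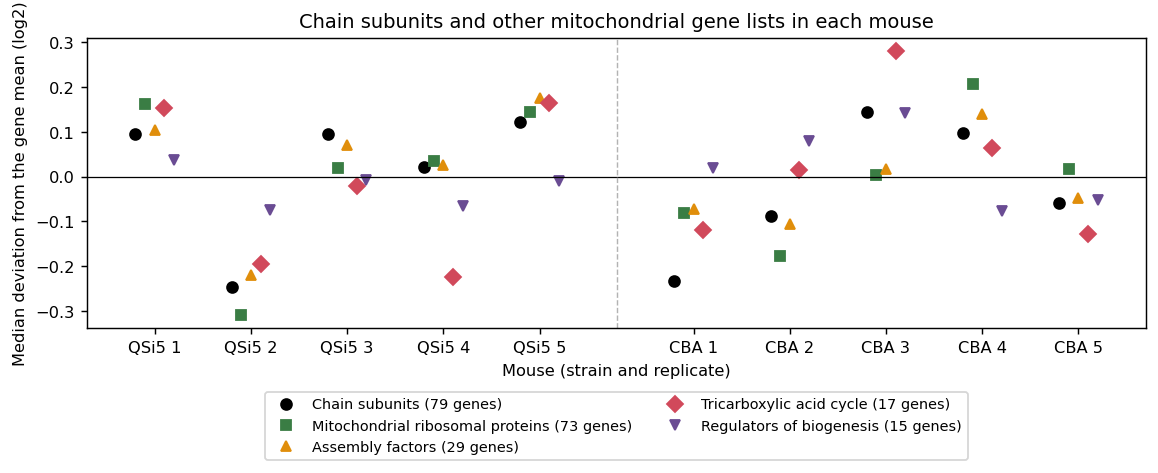
Median deviation from the gene mean (log2, vertical axis) in each mouse, QSi5 on the left and CBA on the right, for the chain subunits, mitochondrial ribosomal proteins, assembly factors, tricarboxylic acid cycle genes and regulators of mitochondrial biogenesis. Ribosomal proteins and chain subunits are both low in QSi5 mouse 2, at -0.31 and -0.25, and the regulators stay between -0.08 and 0.14.

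Among those companion lists 3 genes had a called probe set, each higher in QSi5. They made 4 of 227 probe sets (1.76%), against 1.44% called higher over the whole array, and 0 were called lower, against 1.51%, so that the share was near that of the array. Of 29 tested assembly factors of the chain, 7 of which are also among the 89 genes above, 1 was called. Timmdc1, a membrane protein needed to build complex I, read 6.43, 5.86, 6.02, 5.65 and 6.08 in QSi5 mice, against 4.66, 5.15, 5.11, 5.30 and 5.18 in CBA mice. The strains did not overlap, and the difference was 0.93 (SE 0.16, adjusted p = 0.0063). The median of the list was 0.05.

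Of 73 mitochondrial ribosomal proteins 1, Mrpl39, was called, on both of its probe sets. On the brighter one it read 9.85, 9.57, 9.88, 9.78 and 9.90 in QSi5 mice, against 9.05, 9.12, 8.89, 9.30 and 9.14 in CBA mice. The difference was 0.70 (SE 0.11, adjusted p = 0.0028). The median of the list was 0.03.

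Of the 17 cycle genes, Pdhb, the beta subunit of the pyruvate dehydrogenase E1 enzyme, was called on a probe set that was not its brightest. It read 7.63, 6.97, 7.15, 6.61 and 7.33 in QSi5 mice, against 5.14, 5.96, 6.41, 6.31 and 6.24 in CBA mice. The difference was 1.12 (SE 0.25, adjusted p = 0.0292). Its brighter probe set averaged 10.06 in QSi5 mice and 10.19 in CBA mice, a difference of the other sign that was not called (-0.13, SE 0.25, adjusted p = 0.868). The median of that list was -0.04.

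No gene was called among 7 carriers of ADP, ATP and phosphate (median -0.10), 15 regulators of biogenesis (-0.03) or 11 genes of uncoupling and reactive oxygen defence (-0.02). ND5, the 1 mitochondrially encoded subunit of complex I on the arrays, read 9.59, 9.02, 9.07, 8.94 and 9.08 in QSi5 mice, against 9.31, 9.40, 7.94, 9.62 and 8.65 in CBA mice, with a difference of 0.16 that was not called. The CBA mice spread over a wider range than the QSi5 mice, and CBA mouse 3, low for ND5, was among the mice in which the nuclear subunits stood high.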

How the data were processed

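Gene expression in the mammary gland was measured on 10 Affymetrix arrays, 1 per mouse. The deposited values are log2 intensities, computed by the authors by the RMA method (affy package) and quantile normalized over the 22690 probe sets common to both chip types. Versions of these tools are not given in the sources used here. Quantile normalization brings all arrays close to one distribution, so that a change shared by most genes would largely not be seen. The array medians of the deposited values still lay between 4.21 in CBA mouse 3 and 4.30 in QSi5 mouse 4. The paper's methods give a single chip type, MOE430A 2.0, whereas the sample records give both types, and the records were followed here.

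After 64 control probe sets were set aside, 22626 remained, and those with a mean above 20 unlogged in at least 1 strain entered a limma fit (version 3.58.1, R 4.3.3) by lmFit and eBayes, with strain as the only term and two-sided p, with Benjamini-Hochberg adjustment over 11412 probe sets. The fit was tested on simulated data. Genes stood by the brightest tested probe set, the one with the highest mean over all arrays, in medians and counts of genes. All 89 Entrez identifiers matched RefSeq, and 0 columns of other series were present.

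Named were called probe sets, those at an unadjusted p under 0.01, the 3 brightest and 2 most different genes of each complex, core subunits, tissue-restricted forms and, from companion lists written from general knowledge, called genes. Other members were named after their values were seen, among them ND5 and those at an unadjusted p under 0.05. Members, lists and markers were chosen with earlier results of these data known. Alternatives changed the intensity minimum, the scaling, the chip type, the pairing, an intensity trend, array weights, the probe set suffixes, the rule per gene and each mouse in turn. The number of arrays limits the precision. Each array came from a separate mouse, so that the spread is that between mice.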

Additional observations from a re-analysis of the deposited data

Results flagged for a closer look

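Single mice stood apart from the other 4 of their strain, by a gap test on the highest or lowest value (Dixon's 95% critical value of 0.71 for 5 values), in 10 of 66 groups tested. Chance alone flags about 1 in 20 groups, and the results share mice and genes. For QSi5 mouse 2, 6 of the 10 were low values. The median deviation of the chain subunits was -0.25 in that mouse, against 0.02 to 0.12 in the other QSi5 mice. For complex II it was -0.25 against 0.07 to 0.11, for complex IV -0.20 against 0.02 to 0.10, and for complex V -0.24 against 0.07 to 0.11. The same mouse was low for Atp5j, at 8.40 against 8.84 to 8.99, and for Atp5o, at 10.01 against 10.33 to 10.42.

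Among CBA mice, mouse 4 was high for Atp5j, at 8.86 against 8.26 to 8.42, and for Cox5b probe set 1416902_a_at, at 9.09 against 8.6 to 8.66. CBA mouse 3 was high for Ndufv1 probe set 1415967_at, at 7.46 against 6.92 to 7.00. CBA mouse 1 was low for Timmdc1, at 4.66 against 5.11 to 5.30.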

How the results depend on the processing

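Ndufv1 1415966_a_at was called in 21 of 22 alternatives, with differences between -1.51 and -1.09 and adjusted p between 0.000252 and 0.0555, and was not called on MOE430A 2.0 arrays alone (2 per strain). There 0 member probe sets were called, 0 of them lower, and 65 were called over all. On MOE430 2.0 arrays alone 146 were called over all, against 336 with all arrays. The medians of the chain and of every complex were positive on MOE430 2.0 arrays alone and negative on MOE430A 2.0 arrays alone. They were 0.14 and -0.12 for the chain, 0.14 and -0.15 for complex I, and 0.08 and -0.07 for II. For III they were 0.14 and -0.11, for IV 0.09 and -0.10, and for V 0.15 and -0.14. Both settings use fewer mice. With array weights 4 member probe sets were called, 3 of them higher in QSi5 (2 of Cox5b and 1 of Atp5a1), and after a second quantile normalization 2 were called, 1 of them higher (Cox5b). With each gene taken as the mean of its probe sets, 0 member genes were called, against 1. Leaving out 1 mouse at a time gave 1 to 2 called member probe sets, 0 to 1 of them higher and 1 lower, the second being Cox5b 1416902_a_at without CBA replicate 4 and Atp5a1 1423111_at without QSi5 replicate 2. Calls over all then lay between 215 and 415, with 215 without QSi5 replicate 3 and 221 without QSi5 replicate 5.

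With 1 mouse left out at a time, medians stayed within -0.04 and 0.09 for the chain, -0.06 and 0.10 for complex I, -0.04 and 0.07 for II, -0.05 and 0.09 for III and IV, and 0.03 and 0.12 for V, so that their sign, except for V, depended there on single mice. The low level of the chain held under each scaling tried in QSi5 replicate 2 (-0.27 to -0.13) and CBA replicate 1 (-0.26 to -0.22).

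Timmdc1 was called in 19 of 22 alternatives, Mrpl39 in 21 and 15 of 22 on its 2 probe sets, and Pdhb in 14 of 22. The replicate numbers did not pair the mice (correlations of same-numbered mice between -0.37 and 0.29). With the number as a block 1 member probe set was called, Ndufv1, and 260 over all, and Timmdc1 (adjusted p = 0.0534) and Pdhb (adjusted p = 0.103) were not. The causes were not tested. Leaving both low mice out was chosen after seeing the data, as was the deviation within chip type. With 5 mice per strain the 95% intervals of member probe sets had a median half-width of 0.32, which limits the differences that could be detected.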

Other observations

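The neighbours of Ndufv1, Cox5b and Atp5j, up to 3 genes away on each side, were looked up in the order of RefSeq genes after the values were seen. Next to Ndufv1 on chromosome 19 stands Gstp1, a glutathione transferase, which was called in the opposite direction (difference 0.83, SE 0.13, adjusted p = 0.00404), and Nudt8, 2 genes away on the other side, had a difference of -0.10 (SE 0.15, adjusted p = 0.812). Ndufs8, a complex I subunit 9 genes away, had 6 probe sets between -0.06 and 0.23.

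On chromosome 16, Atp5j stands next to Gabpa, the DNA-binding subunit of GABP (0.17, SE 0.15, adjusted p = 0.647), and 2 genes from Mrpl39 (0.70, SE 0.11, adjusted p = 0.00278), with a difference of its own of 0.37 (SE 0.14, adjusted p = 0.25). App, 2 genes away on the side of Gabpa, had a difference of -0.37 (SE 0.26, adjusted p = 0.56). Around Cox5b on chromosome 1 the tested neighbour was Zap70, 3 genes away (0.16, SE 0.14, adjusted p = 0.649).

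Of member probe sets 1 of 148 (0.676%) differed between the chip types with strain in the fit, against 0.526% of all, and the median of MOE430A 2.0 minus MOE430 2.0 was -0.08 for members and -0.01 for all.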
